A study of Mus musculus with 8 samples.

Results

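The transcripts of 9 core cell-cycle genes were followed across the cell types of the adult mouse heart: the A-type cyclin Ccna2, the B-type cyclins Ccnb1 and Ccnb2, the D-type cyclins Ccnd1, Ccnd2 and Ccnd3, the E-type cyclins Ccne1 and Ccne2, and the kinase Cdk1. They were chosen by symbol, and all 9 were found among the 32285 genes counted, with 1 row each. The series measured single-nucleus RNA with 10x Genomics droplets in hearts of nontransgenic (nTg) mice and of transgenic (Tg) mice that constitutively express CCNA2, of both sexes. The labels give neither age, strain, nor the promoter of the transgene. Of 8 labelled libraries, 5 had a matrix with as many columns as their own barcode list: 2 of Tg males, 2 of Tg females and 1 of an nTg female, as labelled. The matrices of the other 3 libraries repeated those of 3 of these, entry for entry, and were not analysed here. Values per library are given below with nTg female 1 first, then both Tg female libraries by number, then both Tg male libraries by number. The labels do not say whether the libraries came from separate animals, so the tests measure the spread between libraries, which may be technical.

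Cyclins are the regulatory subunits of the cyclin-dependent kinases, and each class acts at its own stage of the division cycle. D-type cyclins bind Cdk4 and Cdk6 in early G1 and act on the retinoblastoma protein; E-type cyclins bind Cdk2 at the entry into S phase. Cyclin A2 acts in S phase with Cdk2 and in G2 with Cdk1, and the B-type cyclins drive mitosis with Cdk1. Cardiomyocytes of the adult heart are largely withdrawn from the cycle, and Ccna2 is normally silenced in them after birth.

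After filtering, 34274 nuclei remained, between 5768 and 8817 per library, with a median depth of 2079 to 3053.5 UMIs per nucleus and a median of 1.41% to 2.52% mitochondrial UMIs. Clusters were named from marker genes and gave 12 cell types. The 9 genes and a list of other cell-cycle genes were left out of the clustering, but cell-cycle genes outside that list were not. The summed level of each type's marker list was highest in that type, which the naming by these markers favours. A marker counted as raised at a log2 difference above 1 from the other nuclei, in at least 5% of the cluster. Raised markers were fewest in the cardiomyocyte cluster led by Cntn2 (3 of 10) and the fibroblast cluster led by Cadps (5 of 10). Of these types, 8 had at least 50 nuclei in each library and were tested: fibroblast (12649 nuclei), endothelial (7083), cardiomyocyte (6538), macrophage (2661), pericyte (2189), endocardial (1336), lymphatic endothelial (764) and smooth muscle (516). Another 50 nuclei, whose cluster was led by the topoisomerase gene Top2a, had no type name. The libraries shared between 7 and 23 barcodes in each pair. Ccna2, the gene of the transgene, went against the labels of 2 libraries: it was abundant in the library labelled nTg female 1 and nearly absent from the library labelled Tg female 1. The libraries are therefore named by their labels, and no genotype was inferred from the values.

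Levels are given as UMIs of the gene scaled to 1e6 UMIs (CPM) in the summed nuclei of a type and library. The kept nuclei held 37605 UMIs of Ccnd3, 13914 of Ccna2, 4784 of Ccnd2, 3635 of Ccne2, 1965 of Ccnd1, 283 of Ccnb2, 106 of Ccnb1, 98 of Cdk1 and 79 of Ccne1. Divided by the length of the gene in kilobases, since longer genes give more nuclear RNA to count, the level over all nuclei was 15.5 CPM per kb for Ccna2, 3.22 for Ccnd3, 2.19 for Ccne2, 1.59 for Ccnd1 and 1.44 for Ccnd2. It was 0.166 CPM per kb for Ccnb2, 0.109 for Ccnb1, 0.0671 for Ccne1 and 0.0447 for Cdk1. Thus the D-type cyclins and Ccne2 were read in every tested type, whereas the mitotic genes and Ccne1 were rare. Ccna2 (with Exosc9), Ccnd1, Ccnd2, Ccnd3 (with Bysl) and Ccne2 (with Ints8) overlap a gene on the opposite strand, and reads from the pairs cannot be told apart where strand was not used in counting. The value of Ccna2 per kb uses the length of the mouse locus. Any transcripts of the transgene in the Ccna2 counts were not told apart from those of the locus.

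**Figure D1:**
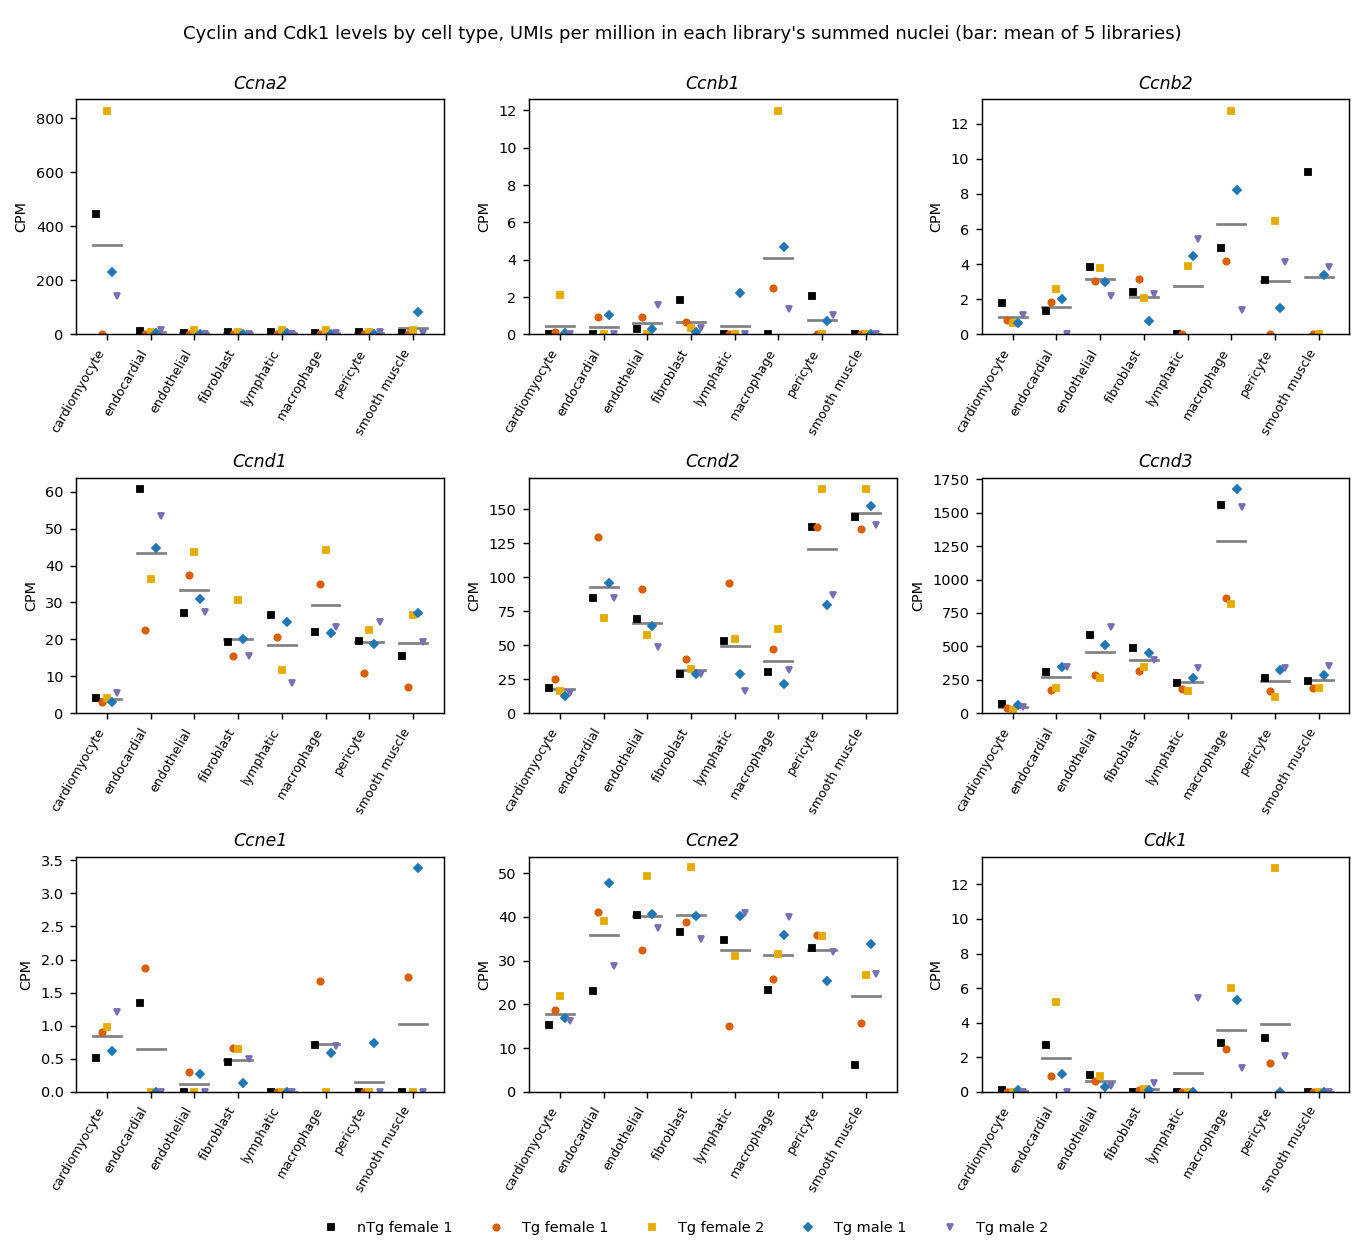
CPM (y axis, linear, from 0) of each gene in the 8 tested cell types (x axis); each point is 1 library and each grey bar is the mean of the 5 libraries. Ccna2 stands out in cardiomyocytes, Ccnd3 in macrophages and Ccnd2 in smooth muscle cells and pericytes, while Ccnb1, Ccnb2, Ccne1 and Cdk1 stay at or below 12.9 CPM.

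Each type was compared with the mean of the other 7 by edgeR's quasi-likelihood test on summed counts, with the library as a block and Benjamini-Hochberg adjustment over 14547 genes. Ccna2, Ccnd1, Ccnd2, Ccnd3 and Ccne2 had enough counts to be tested. Ccnb1, Ccnb2, Ccne1 and Cdk1 did not. Of the 5 tested genes, cardiomyocytes had 1 higher and 4 lower (76.5% of all genes were called in either direction), macrophages 2 higher and 2 lower (58.8%), and endothelial cells 3 higher and 1 lower (54.2%). Fibroblasts had 2 higher and 2 lower (53.8%), pericytes 1 and 1 (44%), endocardial cells 2 higher (35.5%), lymphatic endothelial cells 1 lower (35.2%) and smooth muscle cells 1 higher (33.4%). In all, 23 of 40 comparisons were called, 12 higher and 11 lower, so the share of the cyclins called was near that of all genes. The sense and size of each call differed from cyclin to cyclin.

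Ccnd3 (chromosome 17, 47505051 to 47599691, plus strand, GRCm38), a D-type cyclin prominent in lymphoid cells, was highest in macrophages among the tested types. There it measured 1555, 862, 814, 1675 and 1541 CPM, with a mean of 1289 ± 416 (SD, n = 5). The other tested types together averaged 273 CPM, the fitted log2 difference was 2.37 (SE 0.08), and the adjusted p of the edgeR test was 3.49e-25. Every library showed this order. A UMI of Ccnd3 was seen in 82.1% of macrophage nuclei and in 23.7% of cardiomyocyte nuclei; with every nucleus thinned to 1000 UMIs the shares were 66.0% and 4.35%.

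In the smaller lymphocyte clusters, which were too few for the fit, Ccnd3 reached still higher values. T or NK lymphocytes (127 nuclei) had 2746, 1542, 1145, 2378 and 1666 CPM, and B lymphocytes (74 nuclei) had 2731, 1082, 913, 1753 and 1988 CPM. In each library the lymphocyte values lay above those of the tested types other than macrophages. Among the tested types the order after macrophages was endothelial (458 ± 175), fibroblast (399 ± 71.3), endocardial (274 ± 84.0), smooth muscle (252 ± 69.9), pericyte (243 ± 97.6), lymphatic endothelial (235 ± 68.8) and cardiomyocyte (47.3 ± 18.99; all SD, n = 5). Between neighbours in this order, edgeR separated macrophages from endothelial cells, fibroblasts from endocardial cells (log2 difference 0.58, adjusted p 0.000417) and lymphatic endothelial cells from cardiomyocytes (log2 1.64). The neighbours in between did not differ beyond their spread.

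Cardiomyocytes had the lowest Ccnd3 of the tested types, at 70.4, 35.5, 22.3, 59.3 and 48.8 CPM, against a mean of 450.0 in the other types (log2 difference -2.38, SE 0.12, edgeR adjusted p 1.49e-20). None of the cardiomyocyte values reached any value of another tested type. Within endothelial nuclei, Ccnd3 varied between clusters. The cluster led by Sema3g, a gene of arterial endothelium, had 806 ± 285 CPM, and that led by Car4, a capillary gene, had 377 ± 159 (SD, n = 5). These are descriptions without a test, since the clusters were made from the same nuclei.

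Ccnd2 (chromosome 6, 127125162 to 127152193, minus strand) was highest, among the tested types, in the mural cells of the vessel wall. Smooth muscle cells had 144, 136, 165, 152 and 138 CPM, and pericytes, the mural cells of capillaries, had 137, 137, 165, 79.9 and 86.8 CPM. In smooth muscle the mean was 147 ± 11.9 (SD, n = 5) and the log2 difference from the other types 1.64 (SE 0.18, edgeR adjusted p 5.66e-10); in pericytes these were 121 ± 36.4 and 1.12 (SE 0.14, adjusted p 6.22e-09). The smooth muscle values were nearly alike in all libraries, whereas those of pericytes were lower in the male libraries than in the female ones. The 2 mural types did not differ in Ccnd2 beyond their spread (log2 difference 0.45, SE 0.21, adjusted p 0.106).

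Endocardial cells, the inner lining of the chambers, followed with 93.1 ± 22.5 CPM (log2 difference 0.74, edgeR adjusted p 0.000109), and endothelial cells with 66.3 ± 15.9, which was not called. In lymphatic endothelial cells Ccnd2 was called lower only without Tg female 1 (log2 -0.76, adjusted p 0.0239). Ccnd2 was lower than in the other types in cardiomyocytes (17.5 ± 4.82 CPM, log2 -1.36), fibroblasts (31.8 ± 4.90, log2 -1.11) and macrophages (38.6 ± 16.2, log2 -0.80). The fitted differences use TMM-scaled library sizes and need not equal the ratio of the CPM values, most of all in cardiomyocytes. T or NK lymphocytes had 235, 278, 120.0, 235 and 275 CPM of Ccnd2 from 67 UMIs.

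Inside the named types, Ccnd2 again marked certain clusters. The cardiomyocyte cluster of 122 nuclei led by Cntn2, a gene of the conduction system, had 64.3 ± 9.38 CPM of Ccnd2 (48 UMIs), against 16.4 to 16.7 in the other 3 cardiomyocyte clusters. Its Ccna2 was 7.09 ± 15.9 CPM, against 184 to 375 in those clusters. With 9, 39, 31, 34 and 9 nuclei per library and an SD above the mean, this Ccna2 value rests on few nuclei. The 39 were of Tg female 1, which had no Ccna2-rich cardiomyocytes. The fibroblast cluster of 400 nuclei led by Cadps had 73.8 ± 30.04 CPM of Ccnd2, and the other 5 fibroblast clusters 22.1 to 38.7. In endothelial cells the Sema3g cluster had 102 ± 17.2 CPM and the Car4 cluster 49.0 ± 17.0 (SD, n = 5; no test).

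Ccnd1 (chromosome 7, 144929931 to 144939925, minus strand), the cyclin induced by growth factor signalling in many tissues, had its highest mean among the tested types in the endocardium. Endocardial cells had 60.8, 22.4, 36.4, 44.7 and 53.3 CPM, a mean of 43.5 ± 14.9 (SD, n = 5) and a log2 difference of 1.23 (SE 0.20, edgeR adjusted p 3.42e-06). Endothelial cells had 33.3 ± 7.10 CPM (log2 0.80, adjusted p 2.7e-05) and macrophages 29.3 ± 10.0 (log2 0.51, adjusted p 0.0166). Endocardial and endothelial cells did not differ in Ccnd1 beyond their spread (log2 difference 0.37, SE 0.22, edgeR adjusted p 0.207, endocardial higher in 3 of 5 libraries). Nor did endothelial cells and macrophages (0.25, SE 0.21, adjusted p 0.318). The remaining types other than cardiomyocytes lay together between 18.4 and 20.2 CPM. The macrophage call was lost without Tg female 1 (adjusted p 0.147), without Tg female 2 (0.145) and with called doublets kept (0.0983).

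Cardiomyocytes had little Ccnd1, between 2.997 and 5.36 CPM in the 5 libraries, with a log2 difference of -2.03 (SE 0.19, edgeR adjusted p 1.74e-12). No cardiomyocyte value reached a value of another tested type. All 3 D-type cyclins were therefore lower in cardiomyocytes than in the mean of the other types in every library, but the tested type with the highest mean differed: the macrophage for Ccnd3, smooth muscle for Ccnd2 and the endocardium for Ccnd1.

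Ccne2 (chromosome 4, 11191351 to 11204779, plus strand), which with Ccne1 activates Cdk2 at the start of S phase, varied least between the types. Fibroblasts had 36.5, 38.8, 51.4, 40.2 and 35.0 CPM and endothelial cells 40.4, 32.5, 49.3, 40.7 and 37.5 CPM. Cardiomyocytes had 15.2, 18.8, 22.0, 16.9 and 16.3 CPM. The log2 difference was 0.32 (edgeR adjusted p 0.0103) in fibroblasts, 0.39 (0.00433) in endothelial cells and -0.28 (0.0251) in cardiomyocytes. The cardiomyocyte call was lost without Tg male 1 (adjusted p 0.179) and without Tg male 2 (0.123), and the fibroblast call without Tg female 2 (0.0523). No pair of neighbours in the order of the 8 types differed in Ccne2 beyond the spread.

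Ccne1 (chromosome 7, 38097984 to 38107534, minus strand) was rare everywhere, with 79 UMIs in all kept nuclei. Its highest mean among the named types with more than 2 UMIs was 0.845 ± 0.274 CPM in cardiomyocytes, from 43 UMIs, at 0.520, 0.899, 0.978, 0.625 and 1.20 CPM. Endothelial cells, with more nuclei, had 2 UMIs of Ccne1. Between the paralogs, Ccne2 was therefore the E-type cyclin read in the heart: 2.19 against 0.0671 CPM per kb.

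The mitotic genes Ccnb1 (chromosome 13, 100778650 to 100786570, minus strand), Ccnb2 (chromosome 9, 70407692 to 70421547, minus strand) and Cdk1 (chromosome 10, 69335146 to 69352938, minus strand) are switched on together late in the cycle. Their promoters are shown because these 3 genes moved together in the nuclei described next, and because CCAAT boxes and the cell-cycle homology region are known elements of such promoters. The runs are the bases upstream of the RefSeq start on GRCm38.p6, read 5′ to 3′ on the strand of the gene, up to 150 bases and without those that an annotated transcript covers. Capitals mark CCAAT (or ATTGG, the same on the other strand) and TTTGAA (or TTCAAA), which do not overlap each other.
Ccnb1, chr13:100786571-100786636: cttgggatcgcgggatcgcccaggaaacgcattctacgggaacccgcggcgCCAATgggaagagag
Ccnb2, chr9:70421555-70421704: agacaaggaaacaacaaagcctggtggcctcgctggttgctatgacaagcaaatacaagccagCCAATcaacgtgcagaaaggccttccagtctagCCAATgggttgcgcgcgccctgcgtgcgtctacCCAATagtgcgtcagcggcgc
Cdk1, chr10:69352939-69353062: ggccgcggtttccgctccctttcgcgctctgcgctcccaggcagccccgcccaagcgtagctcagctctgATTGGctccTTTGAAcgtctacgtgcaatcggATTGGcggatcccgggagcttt

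In the whole windows of 150 bases, Ccnb1 had 2 CCAAT matches (1 of them in the 84 bases left out above), Ccnb2 had 3 and Cdk1 had 2. Cdk1 also had 2 TTTGAA matches, 1 of them in the 26 bases left out. Of all 32851 promoter windows of that length in the RefSeq table, 24.5% held at least 1 CCAAT, 6.02% at least 2, and 9.07% at least 1 TTTGAA. Ccne1, which was also higher in the cycling nuclei described below, held neither motif. The 2 start sites of Ccnd3 held 0 and 1 CCAAT. No window was available for Ccna2, Ccnd1, Ccnd2 or Ccne2, so their motifs were not counted. The matches are descriptions of letters, not of binding.

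Across the named types the mitotic genes were close to 0. Cdk1 had 2 UMIs in 6538 cardiomyocyte nuclei, 6 in 12649 fibroblast nuclei and 26 in 2661 macrophage nuclei. In macrophages it measured 2.83, 2.51, 5.99, 5.30 and 1.38 CPM, above the cardiomyocyte value in each library, where the highest was 0.104. Ccnb2 measured 4.94, 4.18, 12.7, 8.24 and 1.38 CPM in macrophages and between 0.625 and 1.77 in cardiomyocytes. Single nuclei carried some of the counts: the 13 Ccnb1 UMIs in cardiomyocytes of Tg female 2 came from 2 nuclei, and 11 of the 12 in fibroblasts of nTg female 1 from 1 nucleus.

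Within macrophages the mitotic genes were uneven. The cluster of 258 nuclei led by Gpr141, with 27 to 84 per library, had a mean of 18.9 CPM of Ccnb1 (range 0 to 31.7). For Ccnb2 the mean was 28.3 (4.54 to 52.4) and for Cdk1 15.1 (4.54 to 31.4), all from few UMIs. The 10 leading genes of this cluster included Ccr2, Cd209a, H2-Eb1 and H2-Ab1 but no listed macrophage marker, though all 10 such markers were raised. The macrophage list led the next list there by a mean log2 of only 0.37. At resolution 0.5 a cluster of 122 nuclei led by Top2a, nearest to macrophages, had no name. The larger cluster of 2403 nuclei led by F13a1 had 0.163, 2.65 and 1.54 CPM. Ccnd3 showed the opposite order, with 946 ± 372 CPM in the first and 1374 ± 401 in the second (SD, n = 5; clusters of the same nuclei, no test).

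To see where the mitotic cyclins were concentrated, nuclei were called cycling when they held UMIs of at least 3 of 16 listed mitosis genes, none of them a member of the 9. There were 28, 27, 48, 52 and 24 such nuclei, 179 in all, or 0.522% of the kept nuclei. Macrophages held 71 of them, 2.67% of their nuclei (exact binomial 95% interval 2.09% to 3.35%), and cardiomyocytes 8, or 0.122% (0.0528% to 0.241%). The cluster without a name, left so because cell-cycle genes led it, held 50, and all its nuclei met the rule.

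Cdk1 measured 67.7, 51.5, 115, 62.7 and 63.5 CPM in cycling nuclei and 0.301, 0.164, 0.345, 0.220 and 0.291 CPM in the others. The cycling nuclei, few as they were, held 68.4% of all Cdk1 UMIs. Ccnb1 had 58.4 against 0.433 CPM over all libraries, with 50% of its UMIs in cycling nuclei, and Ccnb2 had 83.7 against 1.69, with 26.9%. All 3 were higher in cycling nuclei in 5 of 5 libraries. The depth differed too, with a median of 4051 UMIs in cycling and 2644 in other nuclei, and its part in the calls of cycling nuclei was not tested.

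**Figure D2:**
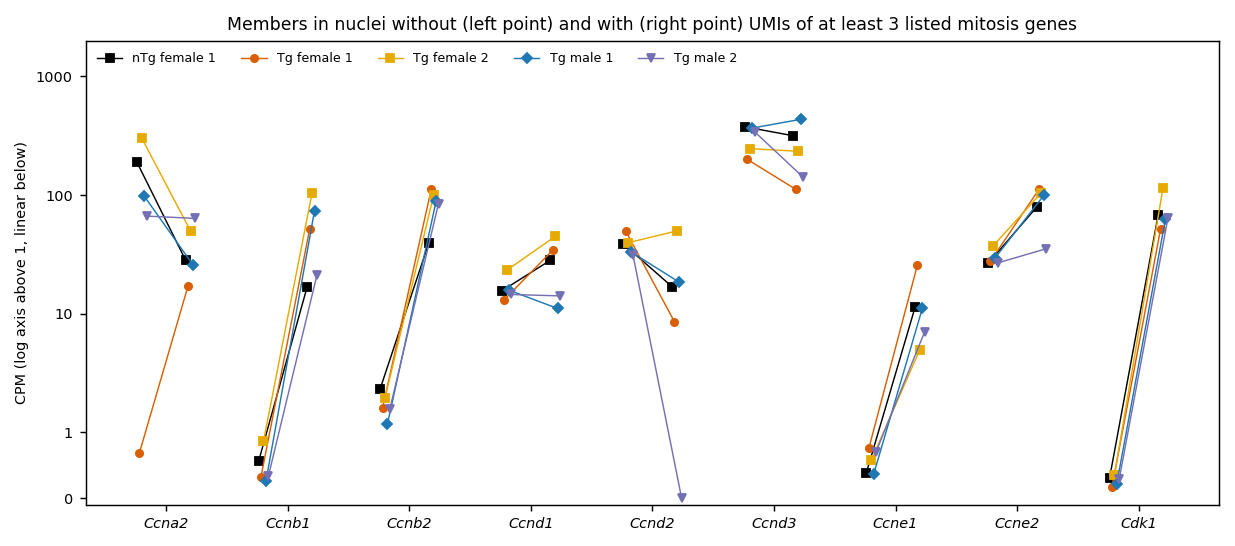
CPM (y axis, logarithmic above 1 and linear below) of the 9 genes in nuclei without (left point of each pair) and with (right point) UMIs of at least 3 mitosis genes, joined for each of the 5 libraries. The lines of Cdk1, Ccnb1, Ccnb2 and Ccne1 rise in all 5 libraries, and those of Ccnd3 fall in 4 and rise in 1.

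The G1 and S phase cyclins behaved differently from one another in the same nuclei. Ccne1 had 11.0 CPM in cycling and 0.564 in other nuclei (10 and 69 UMIs), and Ccne2 had 88.2 and 29.0 CPM. Ccnd1 had 25.3 and 15.9 CPM, Ccnd3 279.9 and 305 and Ccnd2 20.9 and 38.9. Ccna2 had 36.4 CPM in cycling and 113 in other nuclei over all libraries, but in Tg female 1, which had no Ccna2-rich cardiomyocytes, it had 17.2 and 0.690 CPM (2 and 21 UMIs). In the cluster led by Top2a the means were 129 ± 43.1 CPM for Cdk1, 128 ± 60.5 for Ccnb2, 133 ± 73.3 for Ccne2, 71.0 ± 66.6 for Ccnb1 and 66.7 ± 52.6 for Ccna2, while Ccnd3 was 68.3 ± 23.2 (SD, n = 5), below its level in every tested type but cardiomyocytes. Replicate libraries of the cycling class rest on few nuclei, and no test was made.

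The mitotic genes also met in the same nuclei outside cardiomyocytes. Of 76 such nuclei with a Cdk1 UMI, 27.6% had a Ccnb2 UMI, 23.7% a Ccnb1 UMI and 15.8% a Ccna2 UMI. Among the 27660 without Cdk1 the shares were 0.615%, 0.159% and 1.22%. The shares for Ccnd3 were 46.1% with and 52.0% without Cdk1, a difference inside the exact 95% interval of the former (34.5% to 57.9%).

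Ccna2 (chromosome 3, 36564865 to 36572150, minus strand) was concentrated in cardiomyocytes in 4 of 5 libraries. In cardiomyocytes it measured 444, 0.524, 828, 232 and 143 CPM, with a mean of 329.6 ± 322 (SD, n = 5). The other tested types averaged 8.58 CPM, and the log2 difference was 5.82 (SE 0.23, edgeR adjusted p 1.23e-23), higher in 4 of 5 libraries. Cardiomyocytes held 97.6%, 30.4%, 97.2%, 97.3% and 96.0% of the Ccna2 UMIs of their library, the second of these from 23 UMIs. The library labelled Tg female 1 was thus low in cardiomyocytes, and the library labelled nTg female 1 lay within the range of the other 3 libraries labelled Tg. The genotype labels were not tested, since 1 library was labelled nTg and Ccna2 went against 2 of the labels.

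Even in cardiomyocytes most nuclei had no Ccna2 UMI. At least 10 UMIs were found in 109 of 1132, 0 of 1977, 114 of 942, 70 of 1302 and 36 of 1185 nuclei, that is 9.63%, 0%, 12.1%, 5.38% and 3.04%. For Tg female 1 a count of 0 allows a share of up to 0.152%. Between 2 and 9 UMIs were found in only 5, 0, 6, 11 and 2 nuclei. The median in the nuclei with at least 10 was 36, 38, 33.5 and 38 UMIs in the 4 libraries that had them, and the highest was 133. These nuclei held between 97.8% and 98.9% of the cardiomyocyte Ccna2 UMIs of their library. Scaled to depth, the rich nuclei of nTg female 1, Tg female 2 and the males had 4393, 5602, 3973 and 3673 CPM of Ccna2. The share of rich nuclei thus ranged more widely among these 4 libraries than the level within them, which also differed beyond counting error.

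**Figure D3:**
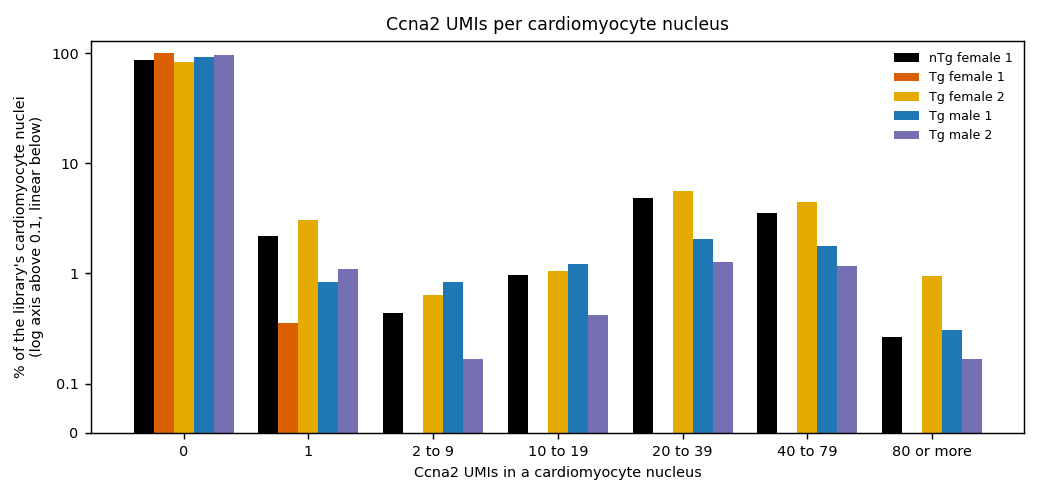
Share of each library's cardiomyocyte nuclei (y axis, %, logarithmic above 0.1 and linear below) by the number of Ccna2 UMIs in the nucleus (x axis). In 4 libraries the classes of 20 to 39 and 40 to 79 UMIs hold more nuclei than that of 2 to 9, and Tg female 1 has no nucleus above 1 UMI.

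Outside cardiomyocytes a Ccna2 UMI was seen in 2.14%, 0.234%, 2.55%, 0.789% and 1.05% of nuclei, in the order of the libraries. Cardiomyocyte RNA was present there as well: the 10 cardiomyocyte markers summed to between 1542 and 2479 CPM in the other tested types, against 48353 CPM in cardiomyocytes. Per 1000 UMIs of these markers, the 7 other tested types ranged from 2.09 to 6.61 Ccna2 UMIs, from 0 to 1.10, from 4.10 to 8.02, from 1.17 to 12.5 and from 1.25 to 11.5 in the libraries in their order, with nuclei of at least 10 Ccna2 UMIs left out. With such nuclei left out in the same way, the ratios in cardiomyocytes were 0.102, 0.0105, 0.236, 0.110 and 0.0402, and with them 9.4999, 0.0105, 19.99, 4.93 and 2.70. The part of free cardiomyocyte RNA in the values of the other types was not tested. Of the other tested types, smooth muscle had the highest mean, 22.5 ± 35.1 CPM (SD, n = 5), and 17 of the 25 UMIs of Tg male 1 there came from 1 nucleus.

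Ccna2 was lower than in the mean of the other types, which includes cardiomyocytes, in endothelial cells (log2 -1.41, edgeR adjusted p 0.012), fibroblasts (-1.52, 0.00246) and macrophages (-1.45, 0.027). The endothelial call was lost without Tg male 1 (adjusted p 0.0832), without Tg male 2 (0.0539) and with called doublets kept (0.578). The macrophage call was lost without nTg female 1 (0.0983), without Tg male 1 (0.117), without Tg male 2 (0.0622), with DESeq2 (0.0503) and with called doublets kept (0.101). Among the 7 types below cardiomyocytes no neighbours in the order of levels differed beyond their spread.

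The next question was whether Ccna2-rich cardiomyocyte nuclei differed in the other cyclins from cardiomyocyte nuclei without a Ccna2 UMI. Nuclei with at least 10 Ccna2 UMIs (329 in 4 libraries) were compared with those with 0 (4130) within libraries. Of the members, 0 passed the edgeR test, against 0.319% of all 12839 genes (41 called, 785 at an unadjusted p under 0.05); DESeq2 and the other settings also called 0 members. Ccnd3 had 47.8, 25.6, 54.7 and 55.6 CPM in the rich nuclei and 72.8, 21.4, 60.02 and 48.8 in the others, a log2 difference of -0.18 (SE 0.15, edgeR adjusted p 0.971). Ccnd2 differed by 0.10 (SE 0.24), Ccnd1 by 0.01 (SE 0.52) and Ccne2 by 0.14 (SE 0.23), with the groups overlapping for each. The counts of Ccnd1 were low, at 12 UMIs in the rich nuclei.

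The mitotic genes and Ccne1 were scarcely seen in either class and were not tested. Cdk1 had 0 CPM in the rich nuclei and a mean of 0.0540 in the nuclei without Ccna2 (0 and 2 UMIs), Ccnb1 0.391 and 0.644 (1 and 13 UMIs) and Ccnb2 0.260 and 1.11 (1 and 38 UMIs). Ccne1 was the exception in direction, with 0, 2.23, 1.56 and 7.25 CPM in the rich nuclei (6 UMIs) and 0.599, 0.793, 0.577 and 0.977 in the others (25 UMIs). It was higher in 3 of 4 libraries, and the exact Poisson 95% intervals of the classes overlapped in each, in Tg male 2 with 1.495 to 21.2 against 0.468 to 1.80 CPM. A count of 0 allows up to 1.03 CPM of Cdk1 in the rich nuclei. None of the 329 rich nuclei held 3 or more of the listed mitosis genes, which allows a share of up to 0.912%. Among all 438 cardiomyocyte nuclei with a Ccna2 UMI, 0.457% had a Ccnb2 UMI and 23.1% a Ccnd3 UMI, against 0.770% and 23.7% of those without. The median depth of the rich nuclei was 8088, 6826.5, 7957 and 8753 UMIs and that of the others 7708, 5724, 7774 and 8009.5.

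**Figure D4:**
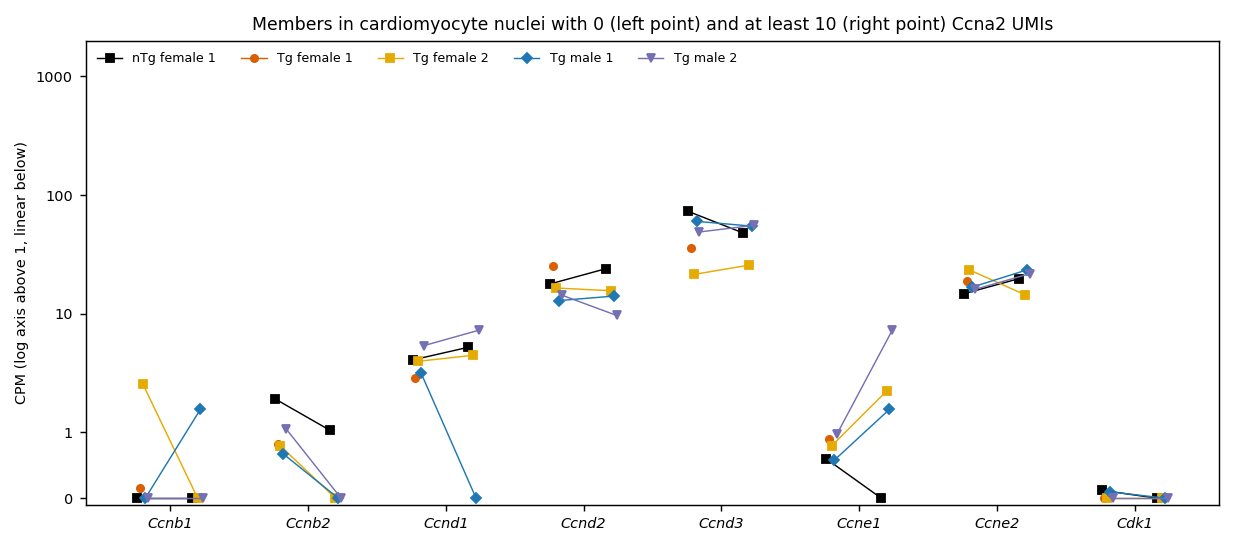
CPM (y axis, logarithmic above 1 and linear below) of the 8 other genes in cardiomyocyte nuclei with 0 (left point) and at least 10 (right point) Ccna2 UMIs, joined for each library; Tg female 1 has left points only. The lines of Ccnd2, Ccnd3 and Ccne2 run in both directions, and Cdk1 lies at or near 0 on both sides.

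Females and males could be compared only within the Tg label, with 2 libraries against 2, and edgeR was fitted in each of the 8 types. Among the members, only Ccnd3 in pericytes was called, where 0.165% of all genes were. Ccnd3 measured 164 and 119.6 CPM in pericytes of the females and 324 and 341 in those of the males, a log2 difference of -1.20 (SE 0.21, edgeR adjusted p 0.0368). The values of the sexes did not overlap. The call was lost without Tg male 1 (adjusted p 0.135), without Tg male 2 (0.187) and with called doublets kept (log2 -1.03, adjusted p 0.104).

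In the other 7 types no member was called (all genes: 0.0266% in cardiomyocytes, 0.226% in endocardial, 0.161% in endothelial, 0.309% in fibroblast, 0.198% in lymphatic endothelial, 0.0351% in macrophage and 0.14% in smooth muscle nuclei). Both female libraries nevertheless lay below both male libraries for Ccnd3 in all 8 types. Of all genes with at least 50 UMIs this was so for 15.5% in cardiomyocytes, 15.4% in endocardial, 15.2% in endothelial, 12.6% in fibroblast, 16.9% in lymphatic endothelial, 17.2% in macrophage, 19.1% in pericyte and 19.4% in smooth muscle nuclei. The types come from the same libraries and are not independent. The log2 differences of Ccnd3 ran from -0.46 in fibroblasts to -1.20 in pericytes; in endothelial nuclei it was -1.14 (edgeR adjusted p 0.0956), and DESeq2 called it (adjusted p 1.01e-05). Over the settings run, the log2 difference of Ccnd3 ranged from -1.35 to -0.62 in cardiomyocytes and from -1.03 to -0.94 in endocardial cells. The range was -1.31 to -0.96 in endothelial cells and -1.07 to -0.83 in macrophages. Calls added by leaving out a library are not read as results, since 1 library was then alone in its group. Calls among all genes rose in those fits as well.

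The library labelled nTg female 1 did not share the low Ccnd3 of the female libraries labelled Tg. Its macrophages had 1555 CPM, its endothelial cells 583 and its cardiomyocytes 70.4, and it lay above both Tg female libraries in all 8 types. The low values thus belonged to Tg female 1 and Tg female 2, which also had the lowest median depths, 2637 and 2079 UMIs per nucleus against 2717 to 3053.5 in the others. The parts of depth and of cluster makeup within the types were not tested in these differences. With this design sex and library cannot be told apart. Genotype cannot be told apart from them either, since Ccna2 went against the label of Tg female 1.

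**Figure D5:**
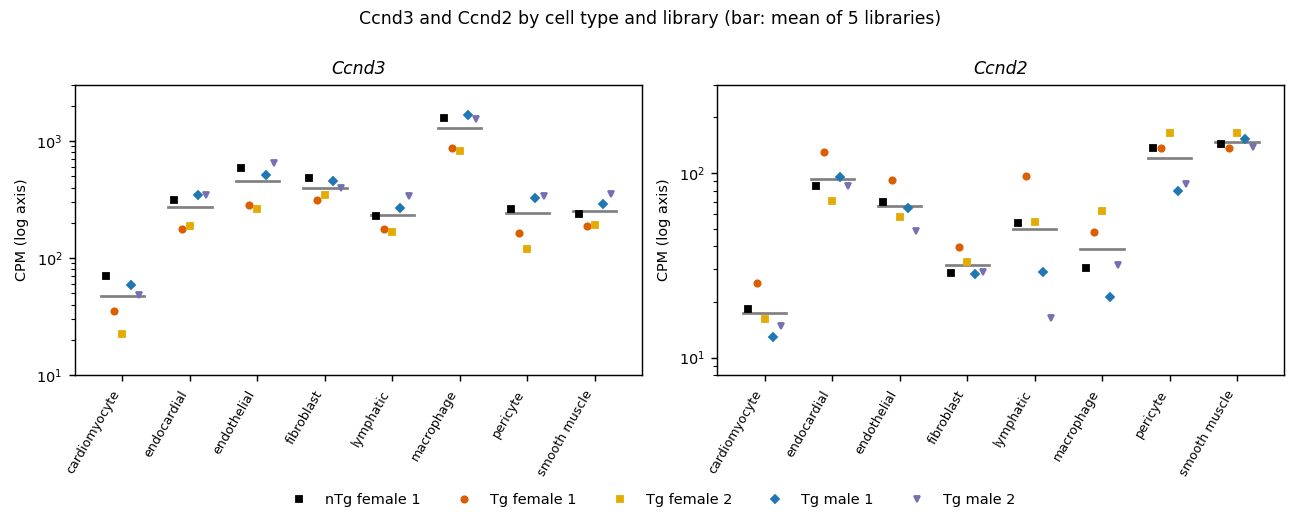
CPM (y axes, logarithmic) of Ccnd3 and Ccnd2 in the 8 tested types (x axis); each point is 1 library and each grey bar the mean of 5. For Ccnd3 the points of Tg female 1 and Tg female 2 are the lowest in all 8 types; for Ccnd2 the order of the libraries changes from type to type.

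Ccnd2 tended to the other side. Both Tg female libraries lay above both Tg male libraries in 5 of 8 types: cardiomyocyte (all genes 21.0%), fibroblast (29.1%), lymphatic endothelial (18.6%), macrophage (17.8%) and pericyte (16.4%). The makeup of the fibroblast type differed as well. Its cluster led by Fgf10 held 455 and 135 nuclei in the Tg females and 836 and 879 in the Tg males. The cluster led by Gm11844 held 690 and 1213 against 325 and 194. The part of this makeup in the differences was not tested. In lymphatic endothelial nuclei Ccnd2 had 95.8 and 54.5 CPM in the females and 29.1 and 16.4 in the males (log2 difference 1.74, SE 0.43, edgeR adjusted p 0.175). In pericytes it had 137 and 165 against 79.9 and 86.8 (log2 0.85, adjusted p 0.265). Neither was called. Over the settings run, the log2 difference ranged from 1.20 to 2.20 in lymphatic endothelial nuclei and from 0.72 to 0.99 in pericytes. Ccna2 in cardiomyocytes, at 0.524 and 828 CPM in the females and 232 and 143 in the males, differed more within the females than between the sexes. Its log2 difference of 1.08 (edgeR adjusted p 0.962) became 2.08 without Tg female 1 and -8.47 without Tg female 2. A test of whether the sex difference of a member in a type departed from that in the other types called 0 members; of all 15249 genes it called 34 in cardiomyocytes, 11 in fibroblasts, 6 in macrophages and 0 in each of the other 5 types.

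The partners and regulators of the cyclins were read from 6 lists of genes. Their counts stand against the shares of all genes called in either direction: 76.5% in cardiomyocytes, 58.8% in macrophages, 54.2% in endothelial cells, 53.8% in fibroblasts, 44% in pericytes, 35.5% in endocardial, 35.2% in lymphatic endothelial and 33.4% in smooth muscle cells. A count near its share is not a result about the list. The Cdk inhibitors bind and block the kinases; 5 of the 6 tested were lower in cardiomyocytes and 0 higher, with a median log2 difference of -2.30 (all genes 0.00), led by Cdkn2b (-4.37) and Cdkn1c (-4.06). In macrophages 5 of 6 were higher and 0 lower, with a median of 0.98 (all genes -0.04), led by Cdkn2a (3.92) and Cdkn2b (2.61). Endothelial cells had 2 higher, Cdkn1c (2.76) and Cdkn1a (1.75), and 1 lower. In cardiomyocytes the 5 of 6 called were near the 76.5% of all genes called there, so this count is not a result about the inhibitors.

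Of the Cdk partners, which include the kinases themselves, 2 of 8 tested were higher and 4 lower in cardiomyocytes, near the 76.5% of all genes called there (median -0.21). Among the lower were Ccnf (-2.14) and Cdk2 (-0.94). In macrophages 5 were higher and 2 lower (median 0.77, all genes called 58.8%), with Cks2 at 2.91 and Ccnf at 2.45. Pericytes, high in Ccnd2, had 2 higher and 3 lower (all genes called 44%). The higher ones were Cdk6 (1.39) and Cdk4 (1.24), the kinases that D-type cyclins bind. Smooth muscle cells had 1 higher, Cdk6 (1.34), and 1 lower, Ccnh (-0.65), where 33.4% of all genes were called. Endocardial cells had 1 lower, Cdk6 (-1.76), and 0 higher, where 35.5% of all genes were called.

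The counts in this paragraph stand against 76.5% of all genes called in cardiomyocytes and 58.8% in macrophages. Among the pocket proteins and E2F factors, through which D-type cyclins act on transcription, 6 of 12 tested were higher and 5 lower in cardiomyocytes (median -0.12). E2f7 (-5.37) and Rbl1 (-4.49) differed most there. In macrophages 7 were higher and 2 lower (median 0.43), led by E2f1 (4.69) and Rbl1 (2.28). Of 6 tested genes of mitotic entry, 0 were higher and 5 lower in cardiomyocytes (median -0.68), near the share of all genes. The phosphatase gene Cdc25b (-3.39) and the kinase gene Pkmyt1 (-2.72) differed most. In macrophages 4 were higher and 0 lower (median 0.74), also near the share. Of 6 genes of cyclin destruction, 2 were higher and 4 lower in cardiomyocytes. Fbxw7, whose product marks cyclin E for degradation, was higher (1.23) and Fbxo5 lower (-1.77).

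The 16 mitosis genes stood highest in macrophages, where 15 of 15 tested were higher (median 2.62, all genes called 58.8%), led by Hmmr (4.58) and Top2a (4.07). In pericytes 7 of 15 were higher and 0 lower (median 0.82), near the 44% of all genes called there. Lymphatic endothelial cells had 4 and 0, below the 35.2% of all genes. Cardiomyocytes had 1 and 9 (median -1.13, all genes called 76.5%) and fibroblasts 0 and 10 (median -1.0046, all genes called 53.8%). Among the tested types Cdk1 averaged 3.95 ± 5.14 CPM in pericytes, where Tg female 2 had 12.9 and the other libraries 0 to 3.09, and 3.60 ± 1.96 in macrophages (SD, n = 5). Of the 15 Cdk1 UMIs of pericytes, 12 were in 5 cycling nuclei. In the comparison of the sexes, 1 listed gene was called, the inhibitor Cdkn1a in endothelial nuclei (log2 -2.05, edgeR adjusted p 0.037), where 0.161% of all genes were. In the comparison of Ccna2-rich nuclei 0 were called, against 0.319% of all genes.

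Finally, the genes whose levels followed each member most closely over the 40 sums of type and library were listed by Pearson's r of log2(CPM + 1), as a description; the sums share 5 libraries. Ccnd3 went with Birc3 (r 0.920), Foxn2 (0.915) and Ptpra (0.909), and Ccnd2 with Mcam (0.868), Gm10687 (0.849) and Cabp1 (0.847). Ccnd1 went with Anxa3 (0.879), Tmbim6 (0.866) and Rpl30 (0.851), and Ccne2 with Lcmt1 (0.823), Ube2s (0.819) and Gm12359 (0.795). For Ccnb2 the values were lower: Lsm6 (0.678), Gm43154 (0.659) and Incenp (0.637).

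Ccna2 was followed by the predicted gene Gm10800 (r 0.905), then by Ptpn11 (0.747) and Mt1 (0.734). Gm10800 lies on another chromosome (2, 98666547 to 98667301, minus strand) and has near-identical copies, so its counts are uncertain. A UMI of it was seen in 106 of 109, 106 of 114, 64 of 70 and 35 of 36 Ccna2-rich cardiomyocyte nuclei, and in 11 of 993, 25 of 793, 8 of 1210 and 16 of 1134 cardiomyocyte nuclei without Ccna2. The log2 difference between the classes was 9.48 (SE 0.11, edgeR adjusted p 1.24e-60). In Tg female 1, which had no Ccna2-rich nuclei, 6 of 1970 cardiomyocyte nuclei without Ccna2 had a UMI of Gm10800.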

How the data were processed

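Nuclear RNA of adult mouse hearts was counted as unique molecular identifiers (UMIs). The authors deposited 1 filtered matrix of raw counts per library, made with Cell Ranger 7.0.0 per the file headers, on the mm10 genome per the submitters' processing notes; whether strand was used in counting is not given in the sources used here. Of 8 matrices, 3 repeated others and did not match their own barcode lists, and 5 were used. Their totals were 25045167 to 38593706 UMIs. Intervals on counts and shares cover counting error only.

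Nuclei with at least 200 genes and under 5% mitochondrial UMIs were kept. Nuclei with a doublet score above 0.15 (scrublet in scanpy 1.11.5) were removed, 7.71% to 11.4% per library; this common threshold was chosen after seeing the data, because the automatic one called 0 doublets in Tg female 2. Nuclei were clustered (Leiden, resolution 1, 15 neighbours) after centring each library, using 30 principal components of 2000 variable genes and leaving out 82 genes (the members, listed cell-cycle genes and sex genes). Clusters were named from 10 markers per type, and part of the naming rule was set after seeing the clusters. The rebuilt types may differ from those of the study.

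Counts summed per library and type were tested with edgeR 4.0.16 (R 4.3.3; TMM, filterByExpr, glmQLFit and glmQLFTest) at a Benjamini-Hochberg adjusted p under 0.05 over all genes tested, with the library as a block between types and between Ccna2 classes and no block between sexes. The procedure was run on simulated counts from a pooled profile, with changes put into well-counted genes only. Such counts lack the differences in profile between types and libraries of the real data, so no error rate is drawn from them. The SE beside an edgeR difference is the absolute log2 difference divided by the square root of the F statistic of its test. It was derived from the test and is not a separate estimate of the fit. DESeq2 1.42.0 and other settings were alternatives. The members and lists were chosen with earlier results of these data known. Named genes were the 9 members, the 3 genes most like each member with at least 100 UMIs in the sums (among genes of at least 5 CPM), and the 2 called genes of each list with the largest log2 difference in a comparison. In the comparisons of sexes the replicate numbers of the labels were not taken as pairs, since same-numbered libraries did not correlate above 0.1 in every type. Samples were grouped by their labels.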

Additional observations from a re-analysis of the deposited data

How the results depend on the processing

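The 23 calls of members across types stayed within 20 to 25 when 1 library was left out, and were 16 with no replicate block. Without that block the calls of Ccna2 in endothelial cells (adjusted p 0.182), fibroblasts (0.092) and macrophages (0.257), of Ccnd3 in fibroblasts (0.126), lymphatic endothelial cells (0.122) and pericytes (0.350) and of Ccne2 in cardiomyocytes (0.053) were lost. DESeq2 called Ccna2 higher in smooth muscle (0.0396), and keeping called doublets, an alternative added after seeing the data, called Ccnd3 lower in endocardial cells (0.0434).

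Between the sexes, the 1 call among members became 2 with DESeq2, 5 with no filter on low counts, 4 with a replicate block and 0 with called doublets kept, and 1 to 8 when 1 library was left out. The 137 calls among all genes became 534 with DESeq2, 1777 with no filter, 793 with a replicate block, 236 with 5 libraries and genotype as a covariate, and 395 to 2922 when 1 library was left out, with 1 library then alone in its group and assumed to vary like the others. Correlations of same-numbered libraries ran from -0.0154 to 0.1502. The log2 difference of Ccna2 in cardiomyocytes was 2.08 without Tg female 1 and reversed to -8.47 without Tg female 2, the library that leaves Tg female 1 as the only female.

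Between Ccna2-rich nuclei and those without Ccna2, 0 members were called in every setting run. The 41 calls among all genes became 19 with DESeq2, 81 with no filter, 11 with nuclei thinned to 2000 UMIs, 12 with no replicate block, and 25 to 44 when 1 library was left out; without Tg female 2 there were 25. The cause of these changes was not tested.

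With called doublets kept, Ccna2 in cardiomyocytes of Tg female 2 was 788 CPM, and the cardiomyocyte share of Ccna2 UMIs was 96.1% in nTg female 1, 95.6% in Tg female 2 and 90.6% in Tg male 2. With under 1% mitochondrial UMIs the level was 897 CPM in Tg female 2, 248 in Tg male 1 and 123 in Tg male 2, and the shares were 100%, 75.0%, 99.6%, 98.02% and 99.5% in the order of the libraries. Depth limits the rare genes most: Ccnb1, Ccnb2, Ccne1 and Cdk1 had 79 to 283 UMIs in all.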

Other observations

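Of the 41 genes called between Ccna2-rich cardiomyocyte nuclei and those without Ccna2, 17 were higher and 24 lower in the rich nuclei. Gm10801, near-identical to Gm10800 and therefore uncertain, was higher by 9.68 on the log2 scale, and Gm33838 by 9.07. The predicted genes Gm10717, Gm10718, Gm10719, Gm10721, Gm10722, Gm11168 and Gm21738 were also higher. Whether they share sequence with Gm10800 was not tested, so the 17 need not be separate signals. Another higher gene was Csmd3 (chromosome 15, 47580637 to 48792063, minus strand), a large gene of the nervous system. All genes named here were chosen after their values were seen. A UMI of Csmd3 was found in 80 of 109, 93 of 114, 57 of 70 and 33 of 36 rich nuclei, for the 4 libraries that had them in the order used above. Among cardiomyocyte nuclei of these libraries without Ccna2 it was found in 21 of 993, 11 of 793, 35 of 1210 and 26 of 1134. The log2 difference was 7.17 (SE 0.13). In Tg female 1 it was found in 48 of 1970. Over the 4 libraries, 79.9% of rich nuclei had Csmd3 and 94.5% had Gm10800, against 2.25% and 1.45% of the nuclei without Ccna2. Among the lower genes, Fgf12 differed by -5.37 (SE 0.47, edgeR adjusted p 1.35e-13). A UMI of it was seen in 0.608% of rich nuclei (exact 95% interval 0.0737% to 2.18%) and 2.06% of the others (1.65% to 2.54%). Cntn2 differed by -2.93 (SE 0.63, edgeR adjusted p 0.00754), with 0.912% (0.188% to 2.64%) and 1.60% (1.24% to 2.03%). These intervals overlapped for both genes. In nTg female 1, 11 nuclei without Ccna2 held 236 Fgf12 UMIs, and in Tg male 2, 10 held 304. Both were among the leading genes of the cardiomyocyte cluster of 122 nuclei led by Cntn2. The part of this cluster in the differences was not tested.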
